A study of Mus musculus with 9 samples.

Results

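The 57 genes described here encode the collagens and the structural proteins that fibroblasts, endothelial cells and mural cells lay down between the muscle cells of the heart, together with enzymes that modify and crosslink collagen. A rule on gene symbols picked them from the 13890 genes of the count table. A symbol pattern for collagen chains took 36 genes, and 21 further symbols were listed, among them Fn1, Sparc, Postn, the lysyl oxidases, the small leucine-rich proteoglycans and Serpinh1. One of the 36, Col4a3bp, encodes a ceramide transfer protein and is no collagen, so the pattern held 35 collagen chains. A filter that removed genes under 0.5 CPM, the counts of a gene scaled to a common library total, in more than 4 of the 9 libraries left 52 of the 57 members among 13364 genes tested. The chains removed were Col8a2, Col17a1, Col22a1, Col25a1 and Col26a1, each at most 1.29 CPM in any library.

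Whole-heart RNA came from 9 male NSG mice, 8 weeks old at the start and studied for 3 weeks, an immunodeficient strain that accepts human cells and lacks mature lymphocytes. Sham mice (S, animals 2, 3 and 5) received vehicle into the spleen. The mice labelled T (animals 11, 12 and 15) are given as hosts of HCT116, a human colorectal cancer line that seeds the liver from there. The mice labelled A + T (animals 20, 21 and 22) are given as such hosts injected weekly with ACVR2B/Fc, a soluble decoy receptor that binds activins, myostatin and related ligands. Values of 3 libraries are always listed in this order of animals. The genes were compared between T and S for the change in hosts, then A + T was compared with T and with S, each group taken as labelled. One limit stands before all results. Set against S, the 3 libraries labelled T followed in their fold changes the study's own gene list for ACVR2B/Fc vs. sham and not its list for hosts vs. sham. Thus, T is used here only as the name of the libraries so labelled, and any direction given for T is theirs. A + T vs. S does not use them as a group, although all 9 libraries shared 1 estimate of the spread. Whether the A + T label is touched by the same doubt was not settled here, so what A + T received is likewise given only as labelled.

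Collagens are trimers wound from 3 chains in the endoplasmic reticulum, where prolyl and lysyl hydroxylases modify them and the chaperone HSP47, the product of Serpinh1, escorts them. Outside the cell, fibrillar collagens I, III and V form the stress-bearing fibres of the myocardium, collagen IV forms the sheet of the basement membrane around myocytes and capillaries, and lysyl oxidases crosslink collagen and elastin. Transcription of many of these genes responds to ligands of the TGF-β superfamily, to which activins and myostatin belong.

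Between 12392222 and 19732471 reads were counted in genes per library, and 3 counts were worth 0.152 to 0.281 CPM. The ribosomal gene Rn45s took 4.57% to 19.6% of the counts. The 9 cardiomyocyte markers, such as Myh6 and Ttn, summed to 49733 to 82827 CPM in the 9 libraries. The lowest sums were 49733 CPM in animal 22 of A + T and 60241 CPM in animal 12 of T, and the others were 69828 CPM or more. A pair of libraries also carried airway and lung transcripts, with a summed 167 CPM of such markers in animal 12 of T and 1278 CPM in animal 22 of A + T, against at most 3.2 CPM in the other 7.

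To show the stretch of DNA next to some members that fell in T, the 150 bases before the transcription start are printed. Col3a1 and Col15a1 were taken as the collagens with the largest fall in their role group, and Serpinh1 as the member with the smallest P-value. Col6a3, of another role group, fell more than Col3a1 and is not printed. They are from RefSeq promoters of GRCm38.p6, which held entries for 39 of the 57 members; Col1a1 had none. Capitals mark the GC box GGGCGG, searched on both strands.
Col3a1, chr1:45311388-45311537, plus strand: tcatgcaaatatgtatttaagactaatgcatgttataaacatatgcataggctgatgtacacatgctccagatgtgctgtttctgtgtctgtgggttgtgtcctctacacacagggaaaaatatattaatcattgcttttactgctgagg
Col15a1, chr4:47207862-47208011, plus strand: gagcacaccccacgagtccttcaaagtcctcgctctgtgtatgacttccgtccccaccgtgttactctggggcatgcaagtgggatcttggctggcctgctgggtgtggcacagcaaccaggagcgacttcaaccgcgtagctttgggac
Serpinh1, chr7:99353240-99353389, minus strand: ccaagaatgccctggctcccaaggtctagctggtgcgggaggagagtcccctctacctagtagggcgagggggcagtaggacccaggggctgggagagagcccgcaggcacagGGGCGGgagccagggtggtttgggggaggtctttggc
The Serpinh1 window held 1 GC box, and the windows of Col3a1 and Col15a1 held none. Within 250 bases before the start, 25 of 39 members (64.1%) held a GC box, against 35.4% of 27025 genes with an entry. The CCAAT box, again on both strands, was found in 10 of 39 members (25.6%) and in 37.5% of all genes. The heat shock half-element pair GAANNTTC or TTCNNGAA stood in 3 of 39 members (7.69%) and in 14.5% of all genes. These are matches of letters in 1 window a start, given as a description.

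In the libraries labelled T, most of the matrix genes were lower than in S. Of the 52 members tested, 33 fell (63.5%) and 1, Lox, rose (1.92%), whereas 11% of all genes tested fell and 10.3% rose (edgeR's quasi-likelihood test, adjusted P-value under 0.05). The median log2 fold change of the members was -1.01, against -0.004 for all genes. The 35 collagen chains summed to 2456, 2102 and 2308 CPM in S and to 1021, 970 and 1177 CPM in T. Every library labelled T thus held less collagen mRNA than every S library. With each library left out in turn, 27 to 38 members were called, and 26 of the 34 kept their call each time.

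In A + T, part of the members stood above T and part stayed below S. Against T, 14 of 52 members rose (26.9%), while 3.09% of all genes rose, 2.79% fell, and the median was 0.69 for the members and 0.010 for all genes. No member fell by this test, with 2 lower at an unadjusted P-value under 0.05 and 0 lower by DESeq2 or limma-voom. Against S, 11 members fell (21.2%), while 3.64% of all genes fell, 4.67% rose, and the median was -0.33 for the members and 0.003 for all genes. No member rose above S by this test, against 1 at an unadjusted P-value under 0.05, 1 by DESeq2 and 0 by limma-voom. The summed collagen chains read 2090, 1461 and 1146 CPM in A + T, so that animal 20 came close to the lowest S library and animal 22 lay among the T libraries. These comparisons share libraries with one another, so their counts are not independent.

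Both A + T counts changed when single libraries were left out. Against T, the 14 became 1 without animal 11, 6 without animal 12, 7 and 9 without animals 3 and 5, 9 without animal 20, and 25 without animal 22. Only Sparc kept its call in all 9 of these fits. The median log2 fold change of the members, 0.69 with all libraries, was 0.61 without animal 11 and 0.55 without animal 20. Libraries of S give no values to this comparison and enter it only through the shared fit. Against S, the 11 became 4, 7 and 6 without animals 2, 3 and 5 of S, and 23 without animal 20 of A + T. Serpinh1, P4ha1, Plod1 and Eln kept their call each time. The median of the members, -0.33 with all libraries, was -0.29, -0.41 and -0.36 without animals 2, 3 and 5, and -0.59 without animal 20. Among the 3 animals of A + T, animal 20 was the highest for 34 of the 52 members and animal 22 the lowest for 31.

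**Figure D1:**
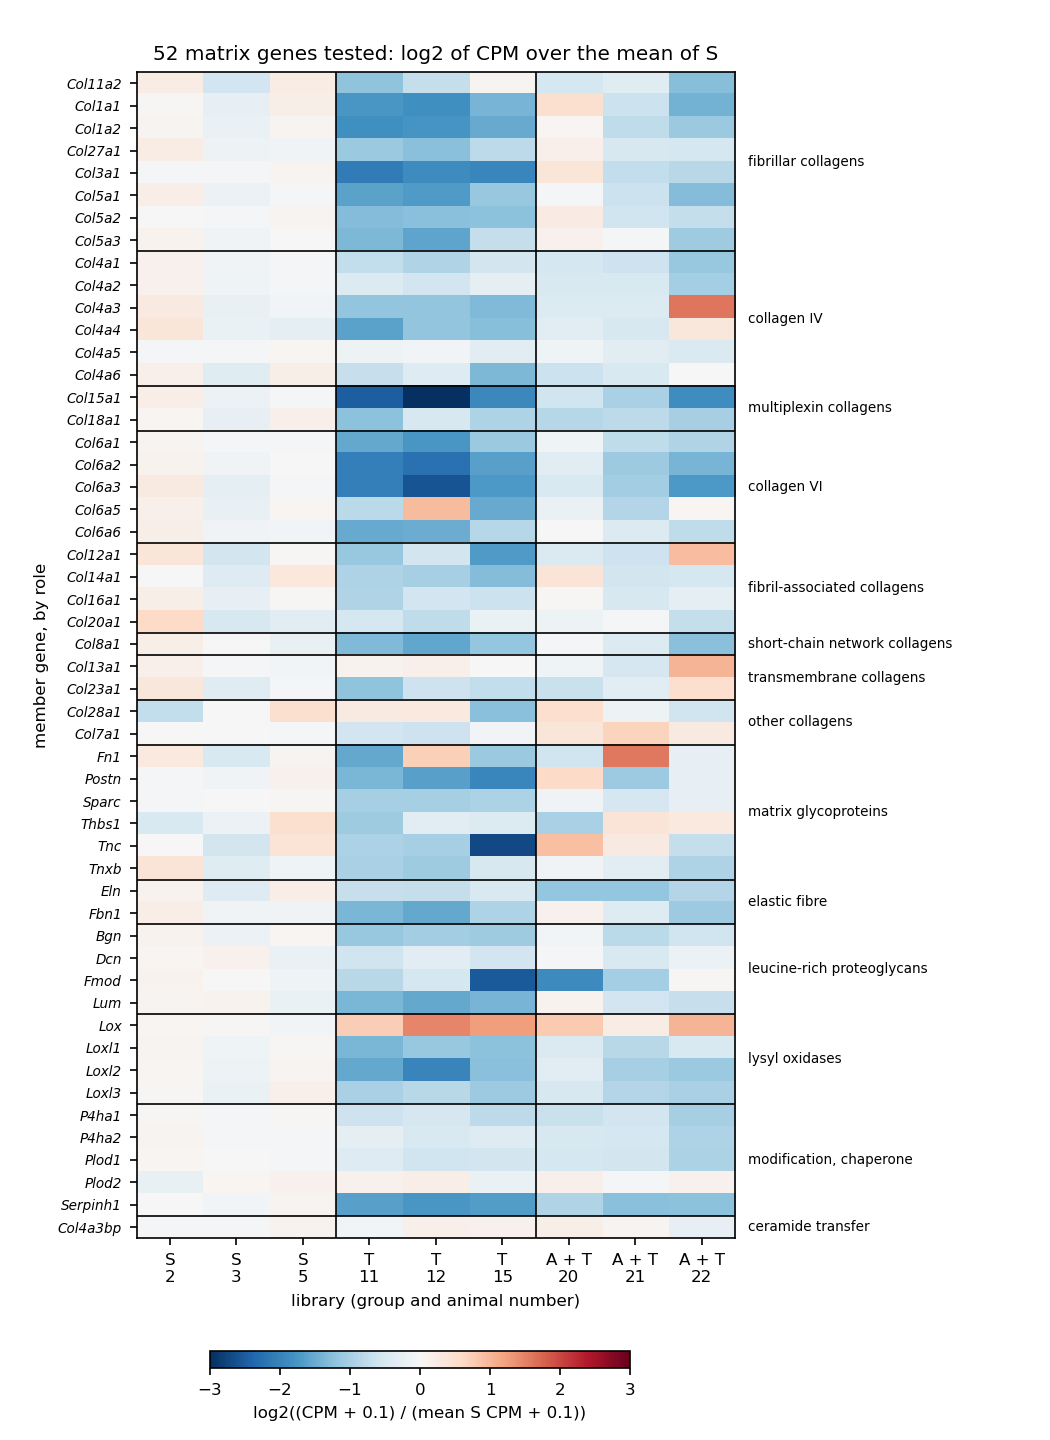
Colour gives the log2 ratio of each library's CPM to the mean of S, after adding 0.1 CPM to both, for the 52 members tested (rows, grouped by role) in the 9 libraries (columns, by group and animal). Most rows are blue in the 3 T columns, Lox is red there, and within A + T the column of animal 20 is palest among the fibrillar collagens.

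Fibrillar collagens carry the tensile strength of the heart wall, and 7 of the 8 tested fell in T. Col3a1 (chr1:45311538-45349706), which encodes the only chain of collagen III, had 332, 337 and 365 CPM in S, 80.9, 93.4 and 88.4 CPM in T, and 447, 205 and 195 CPM in A + T. S and T were far apart, and in A + T all 3 animals were above T, with animal 20 above S. The log2 fold change was -1.98 ± 0.27 (SE; adjusted P = 0.000989) for T vs. S and 1.69 ± 0.27 (adjusted P = 0.00855) for A + T vs. T, and the latter call was lost without animal 11 (adjusted P = 0.0554). Col1a1 (chr11:94936224-94953042) and Col1a2 (chr6:4504814-4541544) encode the α1 and α2 chains of collagen I. Col1a1 had 121, 99.8 and 134 CPM in S, 35, 33.1 and 45.1 CPM in T, and 165, 75.5 and 44.5 CPM in A + T. Col1a2 stood at 195, 161 and 196 CPM in S, 51.6, 54.3 and 64.3 CPM in T, and 192, 108 and 85.6 CPM in A + T. For both chains T lay wholly below S, and in A + T animal 20 was within the range of S or above it, while animal 22 of A + T lay inside the T range for Col1a1 and above it for Col1a2.

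Col1a1 fell by 1.65 ± 0.38 on the log2 scale in T vs. S (adjusted P = 0.0116), a call lost without animal 11 of T (adjusted P = 0.0515), and Col1a2 fell by 1.70 ± 0.25 (adjusted P = 0.00139). Against T, Col1a2 rose by 1.18 ± 0.25 in A + T (adjusted P = 0.0248), a call lost without animal 11 or animal 12 of T (adjusted P up to 0.108), whereas the difference of 1.34 ± 0.38 for Col1a1 missed the threshold (adjusted P = 0.0643), its A + T libraries ranging from 44.5 to 165 CPM. The other collagens of these fibres are minor chains that set fibril diameter. Col5a1 read 84, 64.3 and 71.2 CPM in S, 23.9, 22.4 and 33.4 CPM in T, and 71.7, 46.7 and 29.5 CPM in A + T, and Col5a2 read 38.7, 37.5 and 41.4 CPM in S, 15.8, 16.5 and 16.7 CPM in T, and 46.8, 25.7 and 24 CPM in A + T. Col5a2 was almost constant among the T animals. It fell by 1.26 ± 0.22 in T vs. S (adjusted P = 0.00294) and rose by 0.98 ± 0.22 in A + T vs. T (adjusted P = 0.0292), the rise being lost without animal 3 of S or any of the T animals (adjusted P up to 0.117). Col5a1 fell by 1.47 ± 0.27 in T (adjusted P = 0.00446). Col5a3 and Col27a1 also fell in T, Col5a3 losing its call without animals 2, 11 or 12 (adjusted P up to 0.0664), and Col11a2, at most 3.83 CPM, did not pass. In A + T vs. S the 8 fibrillar chains lay between -0.70 and -0.25, none of them past the threshold by edgeR, DESeq2 or limma-voom, and 0 at an unadjusted P-value under 0.05. That rested on animal 20 of A + T: without it, Col1a1 (-0.98), Col1a2 (-0.93), Col3a1 (-0.79), Col5a1 (-0.94) and Col5a2 (-0.66) were called lower than S.

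**Figure D2:**
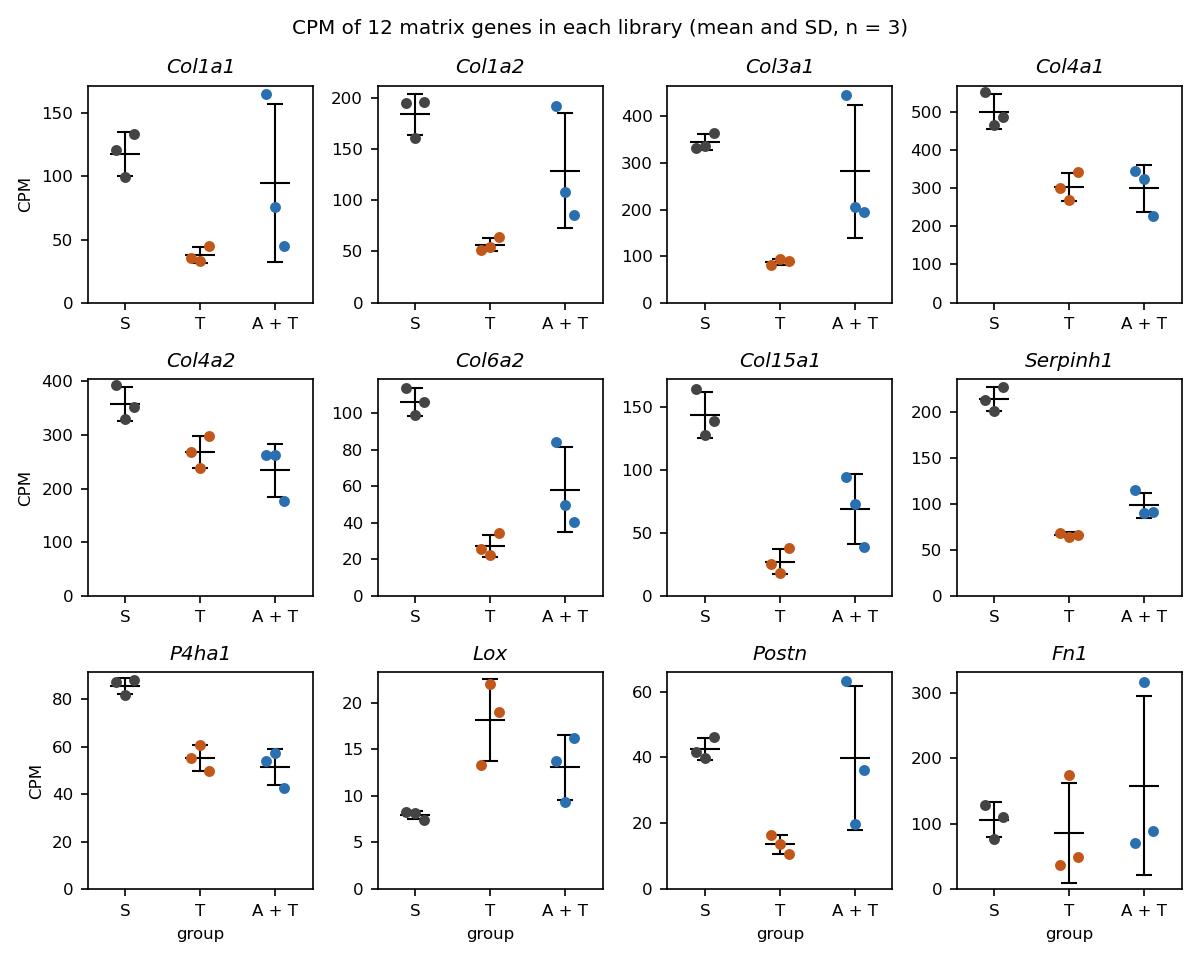
Each point is the CPM (vertical axis, starting at 0) of 1 library for 12 of the members, by group, and the bars give the mean and SD of 3 animals. T sits below S for all of them except Lox, where it sits above, and Fn1, where the groups overlap; P4ha1 and Col4a1 stay low in A + T.

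Collagen IV chains build the basement membrane, and 2 of the 6, Col4a1 and Col4a4, fell in T. Col4a1 and Col4a2 lie head to head on chr8 (11198423-11312826, minus strand, and 11312805-11449287, plus strand), where their annotated ends share 22 bases, and their products form the common α1α1α2 trimer. Col4a1 had 551, 465 and 485 CPM in S, 301, 269 and 341 CPM in T, and 345, 324 and 228 CPM in A + T. Col4a2 had 393, 330 and 352 CPM in S, 268, 239 and 298 CPM in T, and 262, 263 and 177 CPM in A + T. Both were highest in S without overlap, and T and A + T overlapped. Col4a1 fell by 0.72 ± 0.15 in T (adjusted P = 0.00781) and by 0.74 ± 0.15 in A + T vs. S (adjusted P = 0.0179), the second call being lost without animal 2 or 3 of S (adjusted P up to 0.0788). For Col4a2 the difference of T from S, -0.42 ± 0.15, missed the threshold (adjusted P = 0.0751). Of 10 alternative fits 3, DESeq2 among them, called Col4a2 lower in T, as did 1 of 9 fits that left out 1 library. Col4a2 fell by 0.61 ± 0.15 in A + T vs. S (adjusted P = 0.035), a call lost without any of the S animals or without animal 11 (adjusted P up to 0.128).

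Col4a3 and Col4a4 encode chains of the α3α4α5 trimer, which is typical of kidney and lung basement membranes. Col4a4 had 19.1, 12.8 and 12.3 CPM in S, 4.77, 6.42 and 5.99 CPM in T, and 11.9, 10.6 and 18.7 CPM in A + T, and Col4a3 had 10.4, 7.36 and 8.17, then 3.72, 3.75 and 3.37, then 6.49, 6.46 and 26.3 CPM. Animal 22 of A + T, the library with 1278 CPM of airway and lung markers, was the highest of A + T for both, and the part of those cells in the result was not tested. Without that library the Col4a4 calls held. Col4a4 fell by 1.37 ± 0.25 in T vs. S (adjusted P = 0.00393) and rose by 1.26 ± 0.25 in A + T vs. T (adjusted P = 0.02), the rise being lost without animal 11 (adjusted P = 0.0971). Col4a5, at 44.2 to 62.3 CPM in all libraries, and Col4a6 were not called by edgeR's test in any of the 3 comparisons.

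The multiplexin collagens Col15a1 and Col18a1 link basement membranes to the matrix around them, and Col18a1 carries the sequence of endostatin. Col15a1 showed the largest fall of the 52 members in T vs. S. It had 165, 128 and 139 CPM in S, 25.7, 18.1 and 37.7 CPM in T, and 94.5, 73.2 and 39.2 CPM in A + T. The 3 groups did not overlap, and S, A + T and T stood in that order, although animal 22 of A + T stood only just above animal 15 of T. Its log2 fold change was -2.42 ± 0.32 in T vs. S (adjusted P = 0.000815) and 1.36 ± 0.31 in A + T vs. T (adjusted P = 0.0336), the latter being kept only without animal 15 or animal 22 (adjusted P up to 0.133), and the remaining -1.06 ± 0.30 in A + T vs. S missed the threshold (adjusted P = 0.0536), while DESeq2 and limma-voom called it lower and 3 of 9 fits that left out 1 library did so. Col18a1, with 20.7, 16.6 and 21.9 CPM in S, read 8.3, 14.1 and 10.4 CPM in T and 10.8, 11.4 and 9.8 CPM in A + T. Relative to S it fell by 0.84 ± 0.18 in T (adjusted P = 0.00889) and fell by 0.89 ± 0.18 in A + T (adjusted P = 0.0183), and the second call was lost without animal 2 or 5 of S (adjusted P up to 0.0763).

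Collagen VI forms beaded microfilaments that tie cells to the fibres, and 4 of its 5 chains in the table fell in T. Col6a1 had 107, 98.3 and 96.2 CPM in S, 34.8, 29.8 and 46.4 CPM in T, and 92.3, 59.3 and 53.7 CPM in A + T. Col6a2 had 114, 99.1 and 106, then 25.8, 22.5 and 34.2, then 84.4, 49.7 and 40.4 CPM. Col6a3 had 66.5, 45.6 and 53.4, then 13.3, 9.1 and 16.6, then 40.1, 26.6 and 16.7 CPM. All 3 chains of the main trimer followed the order S, A + T, T without overlap of the groups, although animal 22 of A + T stood only just above animal 15 of T for Col6a3. In T vs. S the log2 fold change was -1.45 ± 0.21 for Col6a1 (adjusted P = 0.0012), -1.96 ± 0.25 for Col6a2 (adjusted P = 0.00065) and -2.11 ± 0.30 for Col6a3 (adjusted P = 0.00127). Col6a6, at 24.6, 20.3 and 20.5 CPM in S, 7.56, 7.67 and 12.1 CPM in T and 21.8, 16.4 and 12.8 CPM in A + T, fell by 1.28 ± 0.22 (adjusted P = 0.00302). In A + T vs. T, Col6a1 rose by 0.90 ± 0.21 (adjusted P = 0.0334), Col6a2 by 1.09 ± 0.24 (adjusted P = 0.0308) and Col6a6 by 0.92 ± 0.22 (adjusted P = 0.0396), whereas Col6a3, at 1.12 ± 0.31, did not pass (adjusted P = 0.0587). The calls were lost in most of the fits that left out 1 library, with 3 of 9 fits calling Col6a1, 4 calling Col6a2 and 2 calling Col6a6 (adjusted P up to 0.159). All 3 genes lost their call without animals 3 or 5 of S, 11 or 12 of T, or 20 of A + T. Col6a1 and Col6a6 also lost it without animal 2, and Col6a6 without animal 21. The S animals give no values to A + T vs. T and enter it only through the shared fit. Relative to S, Col6a2 fell by 0.87 ± 0.23 in A + T (adjusted P = 0.0476), which held only without animal 15 or animal 20 (adjusted P up to 0.147). Col6a5, with few counts and 8.2 CPM in animal 12 against 2.35 and 1.4 CPM in the other T animals, did not pass.

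Of the remaining collagens, Col14a1 and Col16a1, which decorate fibrils, and Col8a1, a short chain of vessel walls, fell in T. Col8a1 had 30, 26.5 and 22.7 CPM in S and 10.5, 8.86 and 11.7 CPM in T, and 25.9, 20 and 11 CPM in A + T, where it reached into both other groups. It fell by 1.36 ± 0.26 in T (adjusted P = 0.00478). Col14a1 had 25.7, 19.7 and 32.1, then 13.5, 13 and 10.5, then 33.7, 17.7 and 17.8 CPM and fell by 1.05 ± 0.26 (adjusted P = 0.0173), a call lost without animal 5 of S or 15 of T (adjusted P up to 0.0643). Col16a1 had 15.9, 11.8 and 14.5, then 7.5, 9.39 and 8.98, then 14.3, 10.1 and 11.5 CPM and fell by 0.71 ± 0.17 (adjusted P = 0.013), a call lost without animal 2 of S or 11 of T (adjusted P up to 0.059). None of the 3 passed in either comparison of A + T, although DESeq2 called Col8a1 and 1 fibril-associated chain higher than T. Col12a1, Col20a1, the transmembrane collagens Col13a1 and Col23a1, Col7a1 and Col28a1 were not called by edgeR's test in any of the 3 comparisons, although DESeq2 called 1 transmembrane collagen lower in T, and except for Col23a1 each stayed below 7 CPM in every library.

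**Figure D3:**
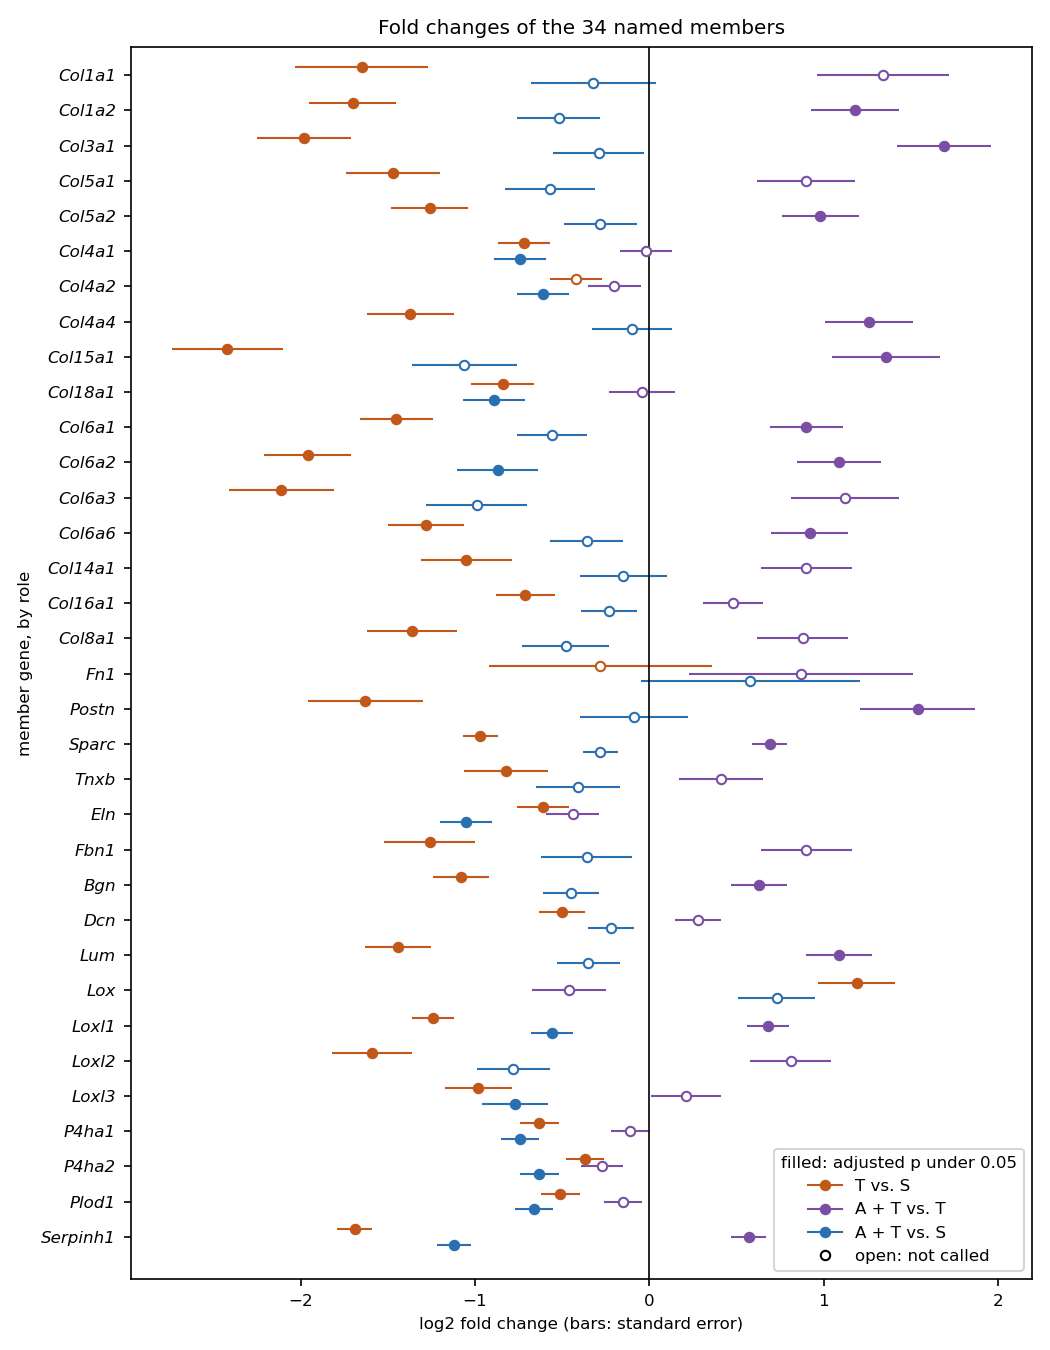
Points give the log2 fold change (horizontal axis) and bars its standard error for the 34 members named by rule, in the 3 comparisons; filled points passed an adjusted P-value of 0.05. In T vs. S all filled points but that of Lox lie left of 0, and for P4ha1, Plod1, Col4a1 and Col18a1 the points of T vs. S and A + T vs. S lie close together.

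Of the 5 members that modify or escort collagen, 4 fell both in T and in A + T relative to S. Serpinh1 (chr7:99345376-99353239), whose promoter is printed above, had 214, 202 and 228 CPM in S, 69, 64.3 and 66.7 CPM in T, and 115, 90.2 and 90.9 CPM in A + T. Spread within groups was small, and the 3 groups did not overlap. The chaperone fell by 1.69 ± 0.10 in T vs. S (adjusted P = 1.96e-05) and by 1.12 ± 0.10 in A + T vs. S (adjusted P = 0.000862), and rose by 0.57 ± 0.10 in A + T vs. T (adjusted P = 0.0153), the rise being lost without animal 11 (adjusted P = 0.0603). P4ha1 and P4ha2, the catalytic subunits of prolyl 4-hydroxylase, and Plod1, a lysyl hydroxylase, fell in both groups relative to S. P4ha1 had 87.3, 81.9 and 88.1 CPM in S, 55.3, 60.6 and 50 CPM in T, and 54.1, 57.4 and 42.8 CPM in A + T. Plod1 had 113, 106 and 104, then 81.7, 71 and 73.2, then 74.6, 73.9 and 55.5 CPM, and P4ha2 had 64, 58.8 and 59.5, then 50.4, 44.2 and 46.6, then 43.5, 42.3 and 31.7 CPM. For these 3 enzymes S lay above both other groups, and animal 22 was the lowest of A + T.

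P4ha1 fell by 0.63 ± 0.11 in T (adjusted P = 0.00361) and by 0.74 ± 0.11 in A + T (adjusted P = 0.00626). Plod1 fell by 0.51 ± 0.11 (adjusted P = 0.0102) and by 0.66 ± 0.11 (adjusted P = 0.00938). P4ha2 fell by 0.37 ± 0.11 in T (adjusted P = 0.0428), a call lost without any animal of S or of T (adjusted P up to 0.137), and by 0.63 ± 0.11 in A + T (adjusted P = 0.0112), a call lost without animal 2 (adjusted P = 0.0561). The A + T vs. T differences of the 3 enzymes were -0.27 to -0.11 and did not pass. Plod2, a lysyl hydroxylase that acts on the telopeptides, ran from 25.4 to 33.9 CPM over all 9 libraries and passed nowhere.

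Lysyl oxidases crosslink collagen and elastin, and Lox moved opposite to its relatives. Lox, on chromosome 18, had 8.24, 8.12 and 7.45 CPM in S, 13.3, 22 and 19 CPM in T, and 13.8, 9.33 and 16.2 CPM in A + T. All libraries of T and A + T were above all of S. The rise in T vs. S was 1.19 ± 0.22 (adjusted P = 0.00422), and that in A + T vs. S, 0.73 ± 0.22, did not pass (adjusted P = 0.068). DESeq2 and the fit without animal 21 did call Lox higher in A + T than in S, and limma-voom did not. The A + T vs. T difference of Lox, -0.46 ± 0.21, did not pass (adjusted P = 0.233). Loxl1, needed for elastic fibres, had 56, 48.3 and 53.5 CPM in S, 20.4, 23.9 and 22.4 CPM in T, and 39.1, 29.3 and 38.3 CPM in A + T, without overlap of the 3 groups. It fell by 1.24 ± 0.12 in T (adjusted P = 0.000184), rose by 0.68 ± 0.12 in A + T vs. T (adjusted P = 0.0137; 0.0723 without animal 11) and, relative to S, fell by 0.56 ± 0.12 (adjusted P = 0.019), a call lost without animal 2 or 5 (adjusted P up to 0.086). Loxl2, at 23.5, 20.5 and 24.2 CPM in S against 7.74, 5.65 and 9.54 CPM in T and 17.9, 11.4 and 10.4 CPM in A + T, fell by 1.59 ± 0.23 in T (adjusted P = 0.00121). Loxl3, with 6.25, 5.28 and 6.8, then 3.04, 3.39 and 2.81, then 4.33, 3.3 and 3.08 CPM, fell by 0.98 ± 0.19 in T (adjusted P = 0.00521) and by 0.77 ± 0.19 in A + T vs. S (adjusted P = 0.0325); the second call was lost without any S animal or without animal 21 or 22 (adjusted P up to 0.11).

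Among the elastic fibre genes, Eln was lowest in A + T. Eln, which encodes tropoelastin, had 75.1, 53.4 and 79.4 CPM in S, 43.1, 42.1 and 50.8 CPM in T, and 31.2, 31.2 and 37.6 CPM in A + T. The groups did not overlap, and here the order was S, T, A + T. It fell by 1.05 ± 0.15 in A + T vs. S (adjusted P = 0.0041) and by 0.61 ± 0.15 in T vs. S (adjusted P = 0.0148), the latter being lost without animals 2, 5, 11 or 12 (adjusted P up to 0.06), and A + T vs. T, -0.44 ± 0.15, did not pass (adjusted P = 0.114). Fbn1, the backbone of the microfibril, had 126, 101 and 101, then 42.3, 37.8 and 57.4, then 120, 83.7 and 51.4 CPM, and fell by 1.26 ± 0.26 in T (adjusted P = 0.0077).

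Matrix glycoproteins were mixed. Sparc, a collagen-binding protein that assists fibril assembly, had 373, 375 and 392 CPM in S, 192, 192 and 197 CPM in T, and 351, 266 and 321 CPM in A + T. Animals of S and of T hardly differed among themselves, and A + T lay between. Sparc fell by 0.97 ± 0.10 in T (adjusted P = 0.000232) and rose by 0.69 ± 0.10 in A + T vs. T (adjusted P = 0.00677). Postn, which encodes periostin of activated fibroblasts, had 41.5, 39.8 and 46.2 CPM in S, 16.4, 13.6 and 10.8 CPM in T, and 63.2, 19.9 and 36.1 CPM in A + T. It fell by 1.63 ± 0.33 in T (adjusted P = 0.007) and rose by 1.54 ± 0.33 in A + T vs. T (adjusted P = 0.0276), a call lost without animal 3 of S, any T animal or animal 20 (adjusted P up to 0.0862). Fn1, fibronectin, was set by single animals, with 129, 76.6 and 111 CPM in S, 36.2, 174 and 48.5 CPM in T, and 69.9, 316 and 89.1 CPM in A + T. Animal 12 of T and animal 21 of A + T were above all S libraries and the rest were within or below them, and no comparison passed (T vs. S -0.28 ± 0.64, adjusted P = 0.786; A + T vs. T 0.87 ± 0.64, adjusted P = 0.463). Without animal 12 these values were -1.32 and 1.91 and still did not pass. Leaving out animal 21 instead gave -0.13 for A + T vs. T. Fn1 was called higher in A + T than in T without animals 12 and 22 together, a fit that kept animal 21. Tnxb, a tenascin of flexible tissue, had 116, 68.5 and 81.3, then 45.4, 42.4 and 63.6, then 81.8, 71.4 and 46.9 CPM, and fell by 0.82 ± 0.24 in T (adjusted P = 0.036), a call lost without animals 2, 5, 11 or 12 (adjusted P up to 0.14). Thbs1 and the scarce Tnc, at most 2.29 CPM, did not pass.

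The small leucine-rich proteoglycans bind fibrils and govern their spacing. Bgn (biglycan) had 366, 302 and 354 CPM in S, 155, 165 and 162 CPM in T, and 322, 196 and 226 CPM in A + T. Lum (lumican) had 123, 126 and 101, then 44.9, 39.9 and 44.4, then 125, 77.7 and 71.8 CPM. Dcn (decorin) had 998, 1047 and 828, then 630, 760 and 646, then 922, 698 and 847 CPM. T was the lowest group for Bgn and Lum without overlap, whereas the A + T libraries of Dcn reached into both other groups. Lum fell by 1.44 ± 0.19 in T (adjusted P = 0.000815) and rose by 1.09 ± 0.19 in A + T vs. T (adjusted P = 0.0123; 0.0575 without animal 11). Bgn fell by 1.08 ± 0.16 (adjusted P = 0.00141) and rose by 0.63 ± 0.16 (adjusted P = 0.0465), the rise being kept only without animal 21 or animal 22 (adjusted P up to 0.161). Dcn fell by 0.50 ± 0.13 in T (adjusted P = 0.0222), a call lost without animals 2, 3, 11 or 15 (adjusted P up to 0.0861). Fmod did not pass, and ran from 2.9 to 11.8 CPM in T and from 4.51 to 17.6 CPM in A + T.

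Levels of different genes were compared on the deposited log2 values, which are scaled for gene length. Dcn, Sparc and Bgn were the 3 highest members in each group, with log2 means of 8.83, 7.16 and 7.14 (S), 8.33, 6.19 and 6.06 (T), and 8.60, 6.87 and 6.66 (A + T). Col3a1 ranked 6 in S but 10 in T, and 4 in A + T, and Col1a1 ranked 15, 19 and 11. Partner chains were then set against each other within each library, as differences of these length-scaled log2 levels and with no test. For collagen I, Col1a1 minus Col1a2, S gave -0.51 ± 0.08, T gave -0.46 ± 0.11 and A + T gave -0.43 ± 0.36 (mean ± SD, n = 3), and the groups overlapped. In the same order, Col4a1 minus Col4a2 was 0.44 ± 0.02, 0.13 ± 0.01 and 0.32 ± 0.05, and Col6a1 minus Col6a2 was -0.17 ± 0.06, 0.33 ± 0.02 and 0.17 ± 0.14. For collagen IV the groups were apart in the order S, A + T, T, and for collagen VI S lay below 0 in every animal while T and A + T lay above it.

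**Figure D4:**
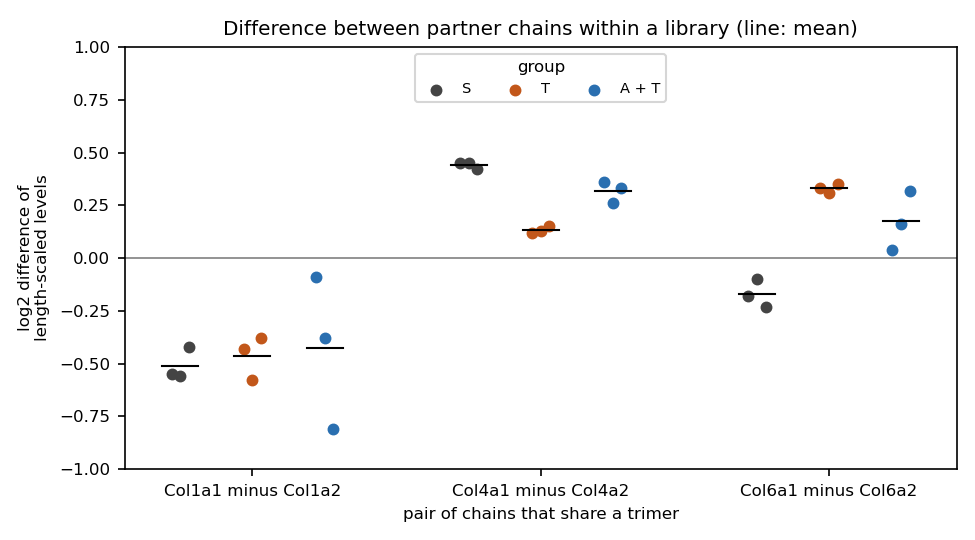
Points give the difference of length-scaled log2 levels between partner chains of a collagen trimer in each library, and lines the mean of 3. Collagen I overlaps between groups, collagen IV falls from about 0.44 in S to 0.13 in T, and collagen VI changes sign from -0.17 in S to 0.33 in T.

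Other genes that serve the matrix were read from 6 lists of genes that are not members, 90 of them tested. In T vs. S, 39 fell and 7 rose (median -0.47), in A + T vs. T 12 rose and 5 fell (median 0.30), and in A + T vs. S 10 fell and the median was -0.23. Of all genes tested, 11% fell and 10.3% rose in T vs. S. In A + T vs. T, 3.09% of all genes rose and 2.79% fell, and in A + T vs. S 3.64% fell. The microfibril and elastic fibre list fell most often in T, with 11 of 15 genes lower (median -0.77), followed by laminins and basement membrane genes (7 of 15 lower, 1 higher), other matricellular proteins and proteoglycans (10 of 22 lower, 2 higher), collagen receptors (4 of 9 lower, 2 higher), folding, modification and export genes (5 of 19 lower, 1 higher) and trimming and crosslinking genes (2 of 10 lower, 1 higher). The summed CPM of the last 3 lists was nevertheless higher in every T library than in every S library, at 2868 to 2949 against 2234 to 2624 for the receptors, 1096 to 1189 against 1039 to 1055 for folding, modification and export, and 638 to 685 against 460 to 523 for trimming and crosslinking. Such sums weigh abundant genes most and do not show that the list as a whole rose. P4hb, in the folding list, had 288, 283 and 297 CPM in S and 445, 437 and 400 CPM in T. Tgm2, in the trimming list, had 362, 318 and 368 CPM in S and 581, 560 and 525 CPM in T. In A + T vs. T the 12 that rose became 0 without animal 11 and 25 without animal 22, and stood at 6, 5 and 5 without animals 2, 3 and 5, 6 and 6 without animals 12 and 15, and 3 without animal 20. The 10 of A + T vs. S became 3, 4 and 6 without the S animals, 16 without animal 20 and 5 without animal 21.

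Some partner genes went against the members. Ctgf, a matricellular target of TGF-β and Hippo signals, had 163 ± 21.3, 457 ± 77.9 and 178 ± 29 CPM in S, T and A + T (SD, n = 3), and rose by 1.48 ± 0.16 in T vs. S (adjusted P = 0.000243) and fell by 1.36 ± 0.16 in A + T vs. T (adjusted P = 0.00269). Tgm2, a transglutaminase that crosslinks matrix proteins, had 350 ± 27.3, 556 ± 28.2 and 352 ± 16.5 CPM and rose by 0.67 ± 0.09 in T (adjusted P = 0.000761). P4hb, the subunit that the prolyl hydroxylases P4ha1 and P4ha2 bind, had 290 ± 7.09, 428 ± 24 and 293 ± 23.8 CPM and rose by 0.56 ± 0.08 (adjusted P = 0.00154). Their A + T vs. S differences of 0.12, 0.01 and 0.02 did not pass. In the other direction, Creb3l1, a transcription factor that activates collagen genes in the secretory stress response, fell by 1.60 ± 0.16 in T (adjusted P = 0.000218) and by 1.04 ± 0.15 in A + T vs. S (adjusted P = 0.00543), from 15.5 ± 2.16 CPM to 5.09 ± 0.257 and 7.49 ± 1.35 CPM. Comp and Prelp, proteins that bind collagen fibrils, and Ltbp4, which holds latent TGF-β in the matrix, moved likewise. Comp fell by 2.16 in T and by 1.36 in A + T relative to S, Prelp fell by 1.36 and by 0.69, and Ltbp4 fell by 1.47 and by 0.99, all on the log2 scale.

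Most fibroblast markers moved with the members, and markers of endothelial and mural cells did so in T vs. S. The 12 fibroblast markers, among them Pdgfra and Tcf21, summed to 2547 to 2924 CPM in S, 1327 to 1360 CPM in T and 1834 to 2173 CPM in A + T, and 11 of 12 fell in T (median -1.01), 6 rose in A + T vs. T (median 0.57) and 4 were lower in A + T than in S. Of 7 markers of activated fibroblasts tested, 6 fell in T, and the sums were 113 to 130, 36.2 to 57.7 and 62.7 to 75.2 CPM. Comp, Cilp and Ltbp2 of this list, and Mfap4 and Lamc3 of the fibroblast list, were also counted among the partner genes. These marker lists are thus partly matrix genes themselves and not separate from the partner lists. The 10 endothelial markers summed to 1217 to 1360, 737 to 945 and 916 to 1147 CPM, with 6 lower in T, and the 9 smooth muscle and pericyte markers to 819 to 952, 605 to 784 and 571 to 876 CPM, with 5 lower in T. In A + T vs. T, 1 endothelial marker rose (median of the list 0.34). For smooth muscle and pericyte markers 1 rose as well, but the median was -0.07. In whole-heart RNA, fewer cells of a type and less matrix RNA per cell cannot be told apart, and the part of these cells in the results was not tested. Of the cardiomyocyte markers, 3 of 9 were higher and 1 was lower in T. Beside these marker counts, 11% of all genes tested were lower and 10.3% higher in T vs. S. The share higher was 3.09% in A + T vs. T and 4.67% in A + T vs. S, where 3.64% were lower. Macrophage and leukocyte markers stood at 298 to 344, 286 to 386 and 549 to 806 CPM, and all 8 were higher in A + T than in S. In A + T vs. T, 6 of these 8 rose (median 0.89), and in T vs. S 2 were higher (median 0.13). Mesothelial markers (33.9 to 197 CPM) passed in no comparison, by edgeR's test, and were highest in animal 22 of A + T and animal 12 of T. Atrial markers summed to 3176, 3230 and 3176 CPM in S, 1614, 4813 and 877 CPM in T, and 814, 1536 and 2171 CPM in A + T. Every A + T library thus lay below every S library. Of the 7 atrial markers, 1 was lower in T, and none passed in A + T vs. S (median -1.14). The part of atrial tissue in the results was not tested. Cartilage markers stood at 21.7 to 29.8, 11 to 22.5 and 12.1 to 22.4 CPM, although 1 of 2 tested was higher in T and in A + T than in S. Adipocyte markers ran from 1.22 to 78.1 CPM, the highest being animal 12.

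**Figure D5:**
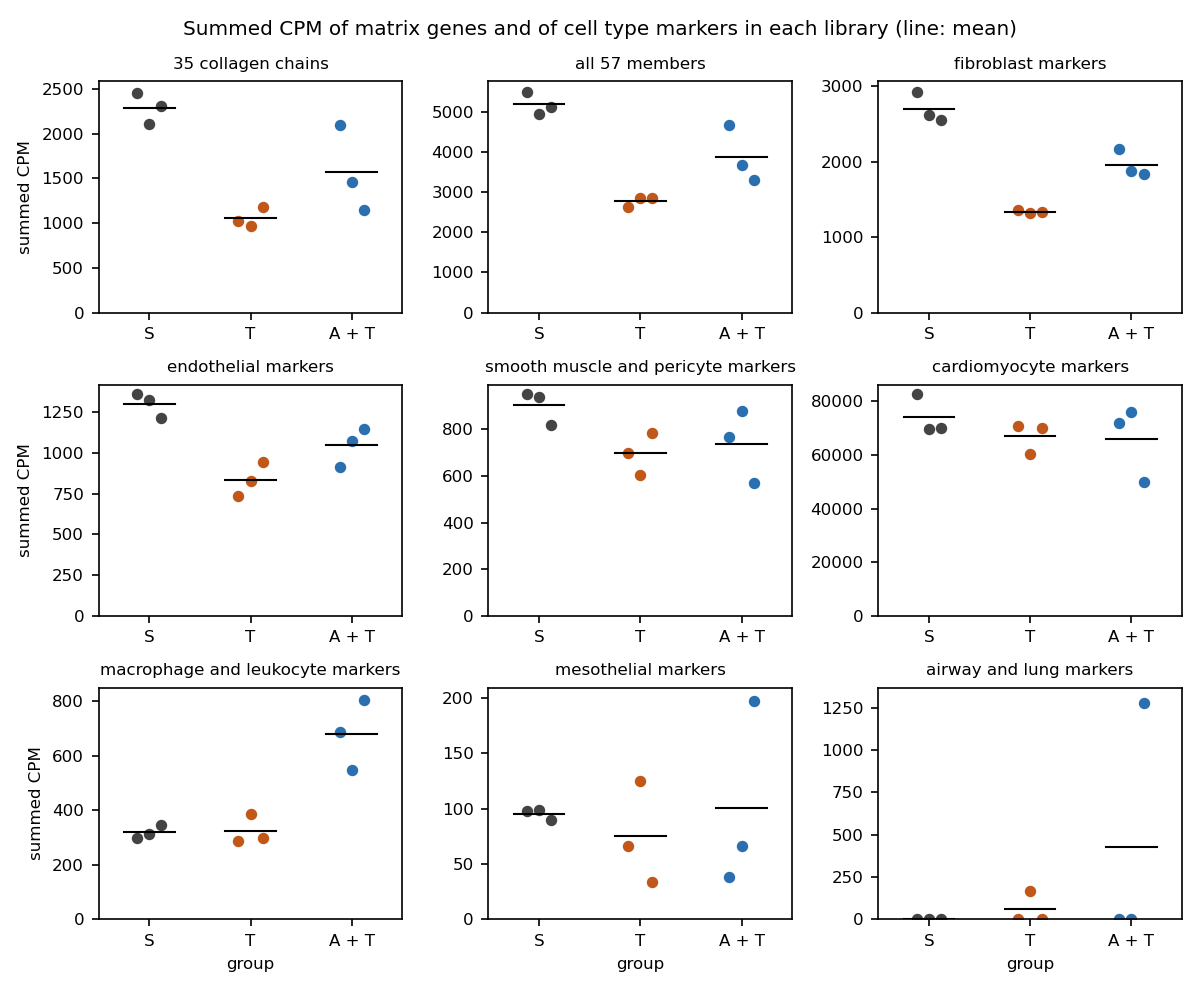
Points give the summed CPM (vertical axes, starting at 0) of the collagen chains, of all members and of 7 cell type marker lists in each library, and lines the mean of 3. Fibroblast markers show the same order S, A + T, T as the members, macrophage markers are highest in A + T, and the airway and lung markers stand out in 1 library of T and 1 of A + T.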

How the data were processed

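RNA of 9 hearts was sequenced from both fragment ends by the authors, aligned to mm10 with STAR, and deposited as read counts per gene (raw) and as log2 values, which the files show to be the counts scaled by library and by gene length. Uniquely mapped reads had been counted by strand in refGene genes with featureCounts. Rows without a symbol held no counts and were dropped. Counts were tested with edgeR 4.0.16 in R 4.3.3 (TMM scaling, quasi-likelihood test, all 9 libraries in 1 fit, Benjamini-Hochberg adjustment over 13364 genes), after removing 526 genes under 0.5 CPM in more than 4 libraries. CPM are TMM-scaled. Standard errors are the log2 fold change over the root of its F statistic. The scripts were tested on simulated data. Members, lists and named genes were chosen with earlier results of these data known. Named are 10 members listed by symbol, in each role group up to 4 called members with the smallest adjusted P-value, and of the partner genes the 3 with the smallest in each comparison; the few others that are named were picked after their values were seen. Each library was taken as 1 animal, as the labels number them. With 3 against 3, a permutation test cannot go below 0.1, so none was used. Alternatives were DESeq2 1.42.0, limma 3.58.1 (voom, and on the deposited log2 values), other scalings and filters, only the groups compared, the study's own threshold, and leaving out libraries. Gene coordinates are those of GENCODE M21 (GRCm38). Counting error is small at these depths for all but the scarce collagens.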

Additional observations from a re-analysis of the deposited data

How the results depend on the processing

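No alternative turned the direction of a called member. For the 57 called results of named members, 963 of 1083 alternative fits passed the threshold and 120 did not, most often without animal 11 (21 lost), animals 2, 5 and 3 (16, 14 and 13), animal 12 (12) or where only the groups compared were fitted (12); of 45 results that were not called, 60 of 855 alternative fits passed. The 34 members called in T vs. S ran from 27 to 41 over all alternatives. In A + T vs. T, the 14 members became 22 with DESeq2, 5 with only the groups compared and 27 at an unadjusted P-value under 0.05 with a fold of at least 1.5, and 1 to 25 with 1 library left out. In A + T vs. S, the 11 became 17 with DESeq2 and 4 to 23 with 1 library left out. For the partner genes in A + T vs. T, 17 became 30 with DESeq2, 4 with only the groups compared and 3 to 31 with 1 library left out; in A + T vs. S, 10 became 16 with DESeq2, 6 with only the groups compared and 3 to 16 with 1 library left out. The cause of these shifts was not tested. Leaving out animals 12 and 22, the libraries with airway transcripts, gave 41, 21 and 12 members in the 3 comparisons. No paired analysis was possible because the labels give each group its own animal numbers. With 3 animals a group, a difference that missed the threshold does not show equal levels, and members under about 1 CPM rest on few counts.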
